A study of Mus musculus with 15 samples.

Results

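Receptor tyrosine kinases outside the ERBB, Met and VEGF receptor families were examined in RNA-seq of mouse mammary tumors and glands. The set held 41 genes out of the 51826 genes measured, chosen by symbol from 13 families: ALK and LTK, AXL and TYRO3, the DDR, EPHA, EPHB and FGFR families, the insulin receptor group, the KIT, FLT3 and PDGF receptors, MST1R, the MUSK, NTRK and ROR group, PTK7 and RYK, RET, and the LMTK and STYK1 group. Trim24COE mice gave 3 metaplastic carcinosarcomas, from mice 64, 567 and 897, and 3 tumors of the carcinoma class, from mice 89, 273_5 and 3956. In these mice MMTV-Cre, active in mammary epithelium, releases expression of a Flag-tagged mouse Trim24 transgene by removing a loxP-flanked stop, and the transgene sits at 1 insertion site on chromosome 1. The controls were 4 mammary glands (mice 133, 392, 417_3 and 517_3) that carried MMTV-Cre without the transgene. A further 3 spontaneous tumors (219, FVB001 and FVB002), labelled as carcinomas of unknown genotype, are called non-TRIM24 tumors. The strain label was FVB for each library, while the series description gives an FVB/129 background for control and Trim24COE mice. Ages were not in the labels, and the class of tumors 89, 567 and 3956 was called differently by different pathologists. The study's tumor list also gives a class call based on RNA-seq for tumors 64, 89, 567, 897 and 273_5. Whether the class labels used here drew on that call is not known. The first 10 mice were sequenced in batch 1, and the non-TRIM24 tumors were sequenced in batch 2 with a repeat library of gland 133 and of carcinoma 3956. Values by mouse are listed in the order in which the mice are named here.

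A receptor tyrosine kinase spans the plasma membrane, binds a ligand outside the cell and, once brought together with a partner, phosphorylates tyrosines that recruit adaptors to the RAS-ERK, PI3K and other pathways. In the mammary gland, FGFR2 receives FGF signals from the stroma that drive growth and branching of the epithelium, KIT marks luminal progenitors, PDGF receptors mark fibroblasts and perivascular cells, and AXL is known from mesenchymal and macrophage cells. Some members of the set (EPHB6, PTK7, RYK, the LMTK proteins and STYK1) lack usual catalytic activity as receptor kinases or are known mainly for other roles.

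Levels were given as TPM, a share of transcripts scaled by gene length that sums to the same total in each library, and sequencing depth was not recoverable from them. The glands were unlike each other in tissue makeup: the summed level of 9 adipocyte markers was 26690 and 39400 TPM in glands 133 and 392 and 1766 and 1953 TPM in glands 417_3 and 517_3. The same sum was 171.6 to 248.2 TPM in metaplastic carcinosarcomas, 124.4 to 1303 TPM in carcinomas and 169.9 to 55140 TPM in non-TRIM24 tumors. The summed level of 8 luminal epithelial markers, which check the labelled mammary tissue, was 876.9 to 4812 TPM in glands, 298.3 to 1412 TPM in metaplastic carcinosarcomas and 2625 to 6196 TPM in carcinomas. Trim24 itself lay at 10.6 to 24.1 TPM in Trim24COE tumors and at 14.5 to 22.4 TPM in the first libraries of control glands, so the groups overlapped. In bulk tissue, fewer cells of a type and less RNA per cell cannot be told apart, and the part of these markers in the receptor results was not tested, apart from fits that left out glands or added the adipocyte markers as a covariate. The libraries of gland 133 and of carcinoma 3956 differed between batches by a median of 0.16 and 0.13 on the log2(TPM + 1) scale over the 41 receptors, and at most by 1.00 and 0.78.

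**Figure D1:**
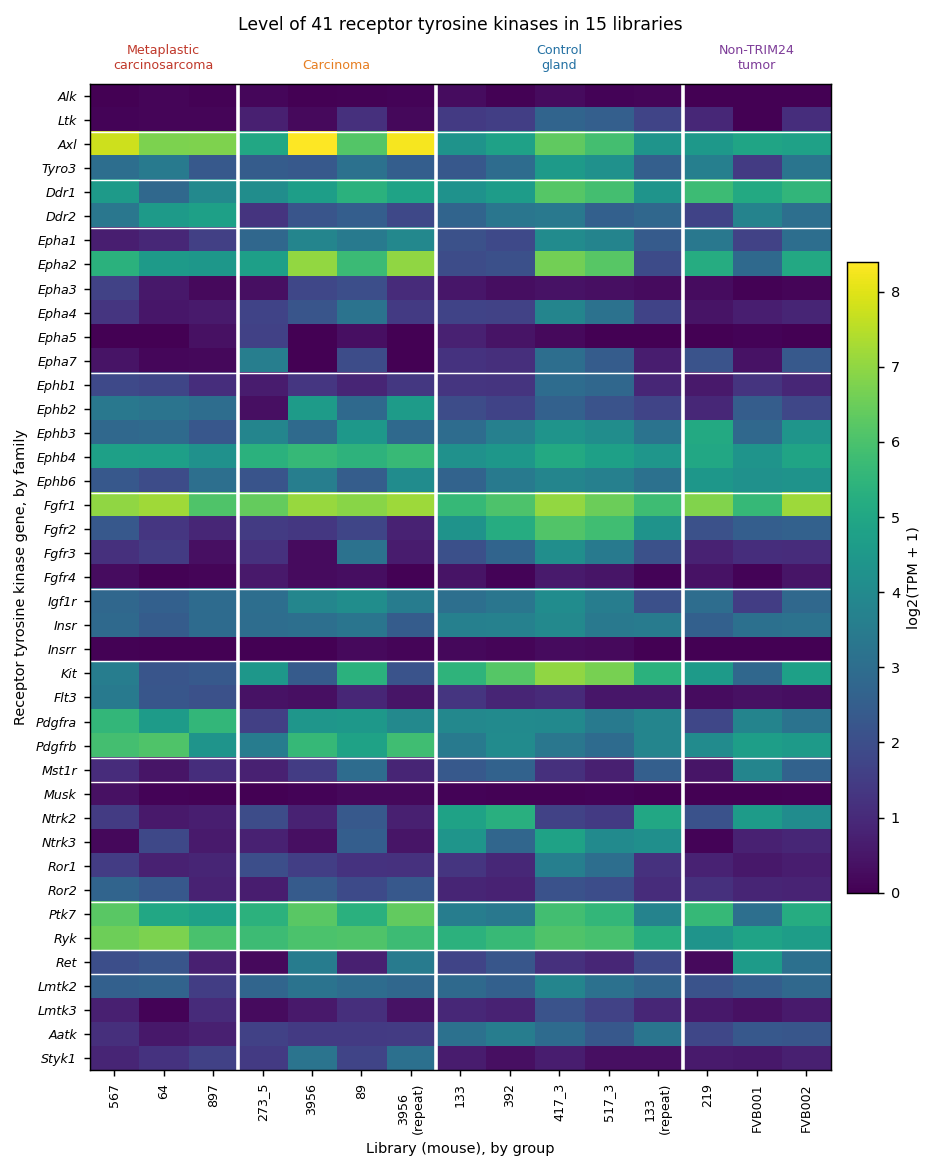
Level of each of the 41 receptor genes (y axis, by family) in each of the 15 libraries (x axis, by group and mouse), colored by log2(TPM + 1). Axl, Fgfr1 and Ryk are among the brightest rows in tumors, Kit and Fgfr2 are brightest in the control gland columns, and Alk, Fgfr4, Insrr and Musk are dark throughout.

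Fgfr1, Ryk and Axl were among the receptors with the most transcript per length in glands and in metaplastic carcinosarcomas alike, while Kit and Fgfr2 led with them in glands and not in metaplastic carcinosarcomas. In control glands the group means were 85.8 TPM for Kit, 83.4 TPM for Fgfr1, 54.9 TPM for Ryk, 46.4 TPM for Axl and 44.7 TPM for Fgfr2. In metaplastic carcinosarcomas they were led by Axl (143.7 TPM), Fgfr1 (113.2 TPM) and Ryk (86.9 TPM), and in carcinomas by Axl (146.4 TPM), Fgfr1 (112.8 TPM) and Epha2 (69.8 TPM). Axl is the receptor for GAS6, and its place at the head of the carcinomas came from carcinoma 3956 alone, at 336 TPM against 70.8 and 31.9 TPM in carcinomas 89 and 273_5. In non-TRIM24 tumors the leading members were Fgfr1 (101.2 TPM) and Ddr1 (43.9 TPM), a collagen receptor of epithelial cells. The sum over the 41 receptors ranged from 351.5 to 1020 TPM per library and overlapped between groups. At the other end, the receptor Alk, the fibroblast growth factor receptor Fgfr4, the insulin receptor relative Insrr and the muscle receptor Musk did not reach 1 TPM in any library.

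The first comparison asked which receptors differ between metaplastic carcinosarcomas and control glands. Of 34 members tested, 5 were higher and 8 were lower at an adjusted p under 0.05 (limma on log2(TPM + 1)), where 23.0% of the 15287 genes tested were called, 9.83% higher and 13.1% lower. The higher receptors were Pdgfra, Pdgfrb, Flt3, Axl and Ephb2, and the lower ones were Fgfr2, Kit, Ntrk3, Aatk, Fgfr3, Ltk, Epha7 and Insr. The median log2 fold change was -0.81 over the members tested and -0.12 over all genes tested. In 5 of the members tested every metaplastic carcinosarcoma lay above every gland, and in 12 every one lay below, against 15.4% and 21.6% of all genes tested. Alk, Epha3, Epha5, Fgfr4, Insrr, Musk and Styk1 were too low to test here. With median-ratio scaling, which moved the median of all genes by 0.19, all genes split into 2397 higher and 1837 lower in place of 1503 and 2008, and the members into 7 higher and 8 lower. Quantile normalization moved that median by 0.17 and gave 1865 higher and 1427 lower genes, with 6 members higher and 6 lower. With 3 tumors and 4 glands an exact two-sided permutation test cannot go below p = 0.0571, so the calls rest on the limma fit across all genes. Fold changes are on the log2(TPM + 1) scale, which understates the change of low genes.

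**Figure D2:**
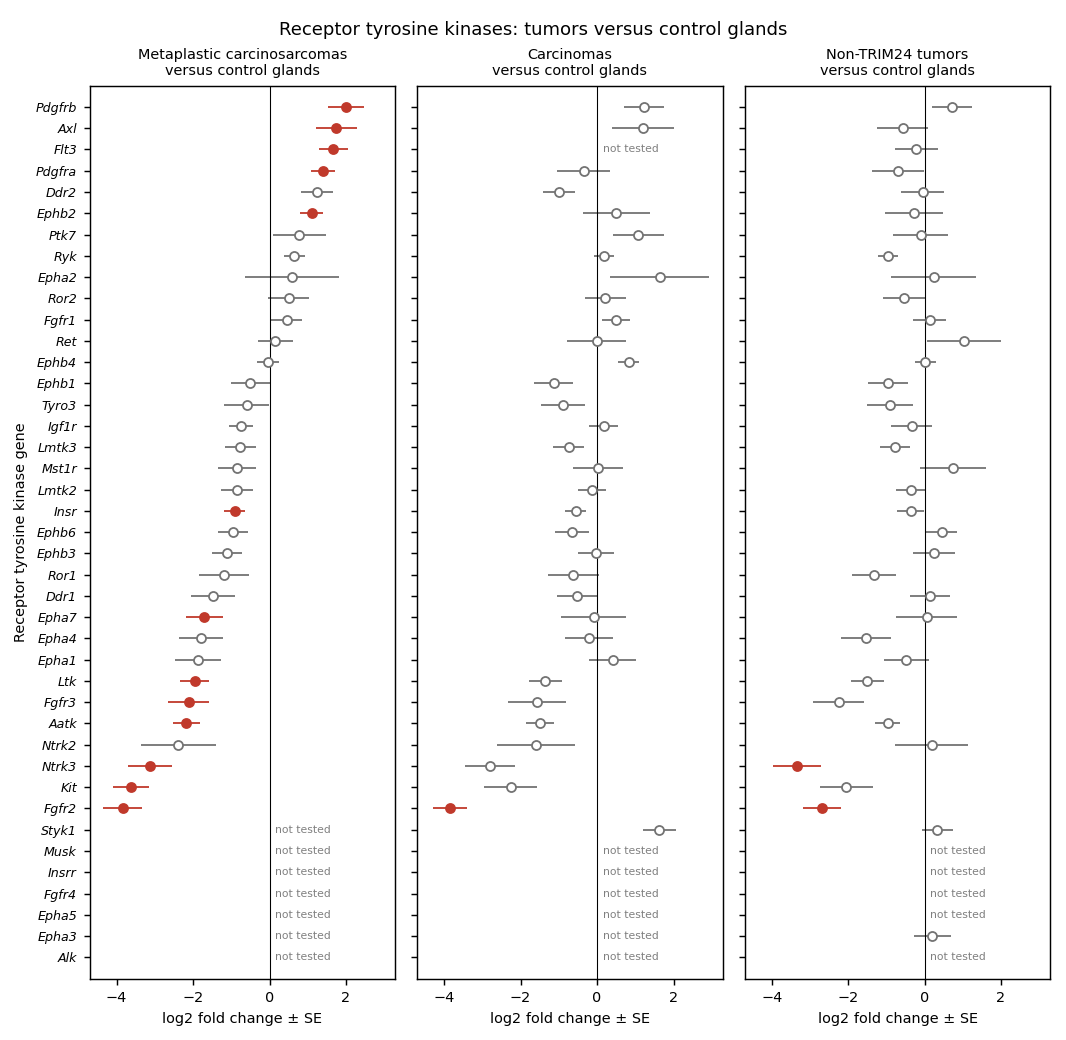
Log2 fold change with its standard error (x axis) of each member (y axis) in metaplastic carcinosarcomas, carcinomas and non-TRIM24 tumors versus control glands, with filled red points for an adjusted p under 0.05. Fgfr2 is filled in all 3 panels, Ntrk3 in the first and last, and the 5 higher receptors of the first panel have open points or no test in the others.

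Fgfr2 (chr7:130162451-133123350, minus strand, GRCm38), the receptor for epithelial FGF signals, was at 19.1, 35.6, 68.9 and 55.1 TPM in the control glands and at 1.54, 4.00 and 0.89 TPM in the metaplastic carcinosarcomas. Every tumor lay far below the lowest gland. Its log2 fold change was -3.84 (SE 0.51, limma, adjusted p = 0.00252), the largest decrease among the members. Kit (chr5:75574916-75656722, plus strand), the receptor for stem cell factor, was at 43.0, 72.1, 128 and 100.3 TPM in glands and 3.62, 10.9 and 4.05 TPM in metaplastic carcinosarcomas. These groups did not overlap either, and the log2 fold change was -3.63 (SE 0.47, limma, adjusted p = 0.00232). Fgfr3 (chr5:33721674-33737068, plus strand), a further FGF receptor, was at 3.16, 5.56, 16.9 and 10.1 TPM in glands and 1.73, 1.22 and 0.27 TPM in metaplastic carcinosarcomas, a log2 fold change of -2.12 (SE 0.53, limma, adjusted p = 0.0253). The highest tumor was below the lowest gland, but the call for Fgfr3 was lost when mouse 64, 517_3, 567 or 897 was left out (adjusted p up to 0.0933). In metaplastic carcinosarcomas 6 of 8 luminal and 4 of 7 myoepithelial markers tested were lower, where 13.1% of all genes were lower. The summed myoepithelial level was 127.1 to 581.6 TPM against 306.3 to 3652 TPM in glands. In carcinomas, where Fgfr2 was lower as well, 0 of 8 luminal and 2 of 7 myoepithelial markers were lower. The share of all genes lower in carcinomas was 1.92%. The part of these markers in the results was not tested. The calls for Fgfr2 and Kit held without glands 133 and 392 and without glands 417_3 and 517_3. Mast cells also carry KIT, and the sum of 6 mast cell markers was 1.63 to 29.7 TPM in metaplastic carcinosarcomas and 4.23 to 90.03 TPM in glands. The part of these cells in the results was not tested. Some exons of Fgfr2 share bases with exons of Ctbp2 on the same strand in GENCODE, and reads there could be assigned to either gene.

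The neurotrophin-3 receptor Ntrk3 (chr7:78175959-78738012, minus strand) was at 19.99, 5.84, 27.3 and 15.1 TPM in glands and 2.56, 0.13 and 0.53 TPM in metaplastic carcinosarcomas. All tumors were below all glands, with a log2 fold change of -3.12 (SE 0.57, limma, adjusted p = 0.00844). Of 6 markers of Schwann cells and nerve, in which NTRK3 is known, 5 were lower, where 13.1% of all genes were lower. Their sum was 5.06 to 12.02 TPM in metaplastic carcinosarcomas against 76.9 to 244.1 TPM in glands, and their part in the result was not tested. Aatk (chr11:120007313-120047167, minus strand), a membrane-anchored kinase of the lemur family, was at 7.76, 10.8, 6.70 and 3.92 TPM in glands and 0.47, 1.18 and 0.68 TPM in metaplastic carcinosarcomas. The groups were apart, and the log2 fold change was -2.18 (SE 0.35, limma, adjusted p = 0.00543). Ltk (chr2:119751320-119760431, minus strand), the closest relative of ALK, was at 1.67, 1.95, 5.59 and 4.81 TPM in glands and at 0.08, 0.05 and 0.08 TPM in metaplastic carcinosarcomas, so it was close to 0 in each of these tumors. Its log2 fold change was -1.96 (SE 0.37, limma, adjusted p = 0.00967), and without mouse 64 the adjusted p was 0.0504. Fgfr2, Kit, Ntrk3 and Aatk were the members whose call held in this comparison under all 17 alternatives tried.

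Epha7 (chr4:28813131-28967499, plus strand), a receptor for ephrin-A ligands on neighboring cells, was at 1.35, 1.19, 7.25 and 4.39 TPM in glands and 0.10, 0.36 and 0.14 TPM in metaplastic carcinosarcomas. The groups were apart at low levels, and the log2 fold change was -1.70 (SE 0.48, limma, adjusted p = 0.0388). Leaving out mouse 64, 417_3, 517_3, 567 or 897 ended that call (adjusted p up to 0.141). The insulin receptor Insr (chr8:3122061-3279617, minus strand) had the smallest called difference, from 11.5, 11.8, 14.5 and 9.55 TPM in glands to 4.49, 6.36 and 6.72 TPM in metaplastic carcinosarcomas. The lowest gland was still above the highest tumor, and the log2 fold change of -0.91 (SE 0.27, limma, adjusted p = 0.0463) did not hold when any 1 of the 7 mice was left out (adjusted p up to 0.184). Fat cells are rich in insulin receptor, and without the fat-rich glands 133 and 392 the log2 fold change was also -0.91, at an adjusted p of 0.0684.

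Among the receptors that were higher, both PDGF receptors, which respond to platelet-derived growth factors in mesenchymal cells, were called. Pdgfra (chr5:75152292-75198215, plus strand) was at 14.01, 15.1, 14.8 and 10.02 TPM in glands and 23.4, 46.7 and 46.2 TPM in metaplastic carcinosarcomas. Every metaplastic carcinosarcoma exceeded every gland, and the log2 fold change was 1.41 (SE 0.32, limma, adjusted p = 0.0179). Without mouse 567 or 897 the adjusted p was 0.0755 or 0.0657. Pdgfrb, on chromosome 18, was at 10.1, 15.4, 9.0 and 6.64 TPM in glands and 66.3, 58.2 and 19.4 TPM in metaplastic carcinosarcomas, with a log2 fold change of 2.00 (SE 0.47, limma, adjusted p = 0.0201). The groups did not overlap, and the call ended without mouse 64 or 567 (adjusted p = 0.0939 and 0.0819) or without glands 417_3 and 517_3 (adjusted p = 0.0656). Of 6 fibroblast markers tested, 1 was higher and 4 had a positive log2 fold change, where 9.83% of all genes were higher. The fibroblast sum of 833.6 to 1057 TPM in metaplastic carcinosarcomas lay within the 436.3 to 1318 TPM of the glands. Of 5 pericyte markers tested, 0 were higher and 2 lower, and the pericyte sum of 25.4 to 61.1 TPM was below the 101.9 to 129.9 TPM of the glands. The part of fibroblasts and pericytes in these results was not tested.

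Flt3 (chr5:147330741-147400489, minus strand), the receptor of blood progenitors and dendritic cell precursors, was at 1.44, 0.84, 0.99 and 0.43 TPM in glands and 3.77, 9.67 and 3.27 TPM in metaplastic carcinosarcomas. All of these tumors were above all glands, with a log2 fold change of 1.67 (SE 0.38, limma, adjusted p = 0.0186). The adjusted p was 0.0552 without mouse 64, 0.0566 without mouse 567 and 0.0527 without glands 417_3 and 517_3. The sum of 5 dendritic cell markers was 10.9 to 53.1 TPM in metaplastic carcinosarcomas and 15.02 to 19.6 TPM in glands. Its highest value, 53.1 TPM, was in tumor 567, the tumor that also had the highest Flt3, and 41.9 TPM of it was Itgax. Another of these markers, Zbtb46, was at 2.03 to 4.59 TPM in metaplastic carcinosarcomas and 4.52 to 8.08 TPM in glands. Of 3 dendritic cell markers tested, 0 were higher and 0 lower, where 23.0% of all genes were called. In carcinomas the sum was 22.5 to 30.8 TPM, with Flt3 at 0.26 to 0.87 TPM. The part of dendritic cells in the result was not tested.

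Axl (chr7:25757273-25788705, minus strand) was at 18.8, 27.2, 81.2 and 58.3 TPM in glands and 107, 216 and 108 TPM in metaplastic carcinosarcomas. The tumors were all above the glands, but the glands differed severalfold among themselves, and the log2 fold change was 1.75 (SE 0.53, limma, adjusted p = 0.0455). It fell to 0.97 (adjusted p = 0.0790) without glands 133 and 392 and to 0.74 (adjusted p = 0.283) with the adipocyte markers as a covariate. Leaving out mouse 64, 133, 392, 517_3, 567 or 897 also ended the call (adjusted p up to 0.159). Macrophages express AXL, and 4 of 6 macrophage markers were higher, where 9.83% of all genes were higher. Their summed level was 974.6 to 1835 TPM in metaplastic carcinosarcomas against 136.1 to 462.3 TPM in glands, and their part in the result was not tested. Ephb2 (chr4:136647539-136835988, minus strand), a receptor for ephrin-B ligands, was at 2.89, 2.21, 5.09 and 3.46 TPM in glands and 8.45, 9.22 and 7.05 TPM in metaplastic carcinosarcomas. Its groups did not overlap, with a log2 fold change of 1.10 (SE 0.31, limma, adjusted p = 0.0356), and the same 6 mice each ended its call when left out (adjusted p up to 0.131). The adipocyte covariate brought it to 0.71 (adjusted p = 0.146), and without glands 133 and 392 the adjusted p was 0.0753. With all batch 1 groups in a single fit, the adjusted p was 0.335 for Ephb2 and 0.137 for Pdgfra.

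**Figure D3:**
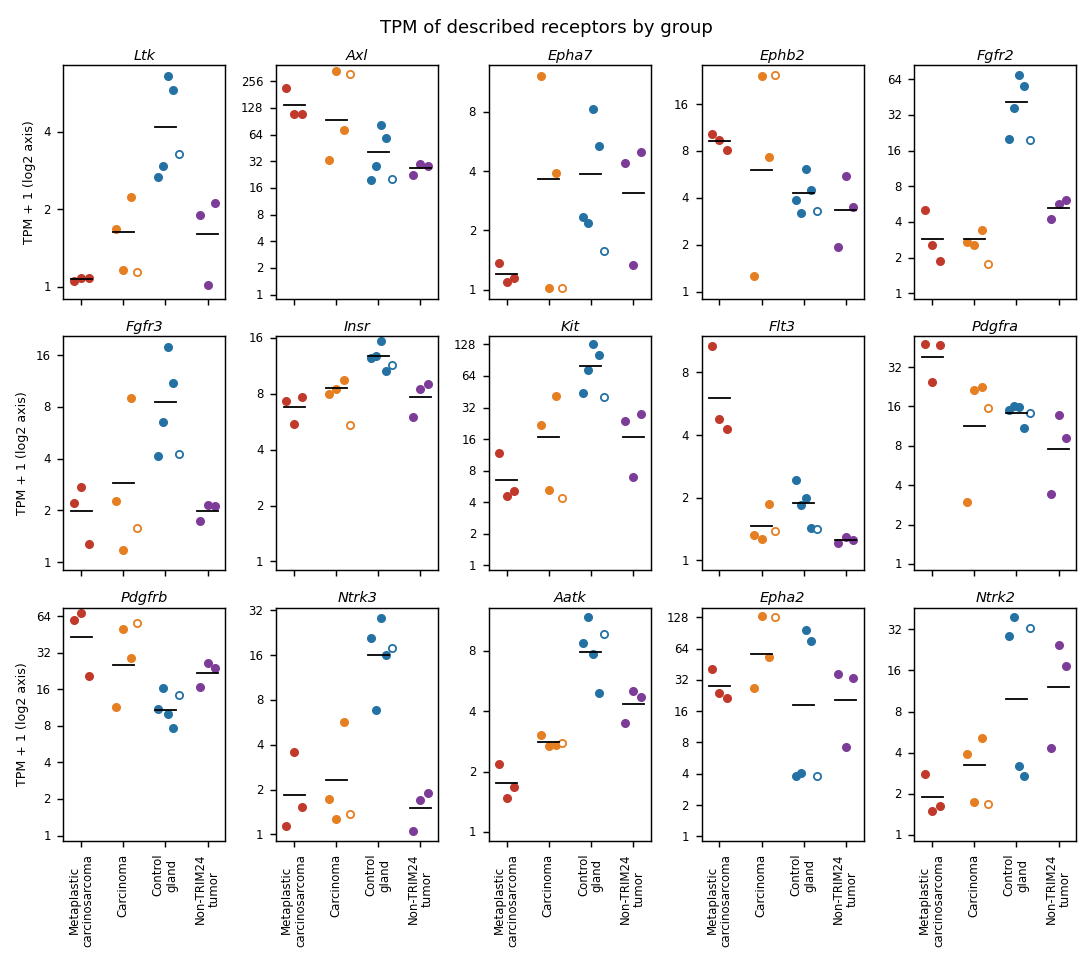
Level of 15 receptors (1 panel each) as TPM + 1 on a log2 axis, by group, with a filled point for the first library of a mouse, an open point for a repeat library and a bar for the group mean on the log scale. Fgfr2 and Kit show every metaplastic carcinosarcoma below every gland, Pdgfra, Pdgfrb, Flt3, Axl and Ephb2 show every one above, and Epha2 and Ntrk2 show glands split into a low and a high pair.

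Several members without a call were near the threshold in metaplastic carcinosarcomas. The ephrin-A receptors Epha4 and Epha1 had log2 fold changes of -1.78 and -1.86 (limma, adjusted p = 0.0566 and 0.0574), and the ephrin-B receptor Ephb3 had -1.11 (limma, adjusted p = 0.0733). The collagen receptor Ddr2, known from mesenchymal cells, was at 23.1, 9.01 and 26.4 TPM in metaplastic carcinosarcomas and 5.56, 8.79, 9.59 and 4.95 TPM in glands, where tumor 567 lay within the range of the glands (1.23, limma, adjusted p = 0.0682). Of the 34 members tested, 22 had an unadjusted p under 0.05, of which 7 were higher and 15 lower, against 37.6% of all genes tested, 15.9% higher and 21.7% lower. Fgfr1, an abundant FGF receptor, was at 146, 126 and 66.8 TPM in metaplastic carcinosarcomas, within or near the 48.5 to 129 TPM of the glands.

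These counts depended on which glands were used. Without glands 133 and 392, 3 members were higher and 18 lower, against 5 and 8 with all glands, and a covariate for the adipocyte markers gave 3 higher and 17 lower. The share of all genes called lower also went up, from 13.1% to 25.4% without these glands and to 22.0% with the covariate. The share called higher went from 9.83% to 12.2% without these glands and to 10.7% with the covariate. Epha2, an ephrin-A receptor of epithelia, and Ntrk2, the receptor for brain-derived neurotrophic factor, show the split, and both were picked with their values in view. Epha2 was at 2.84, 3.11, 96.3 and 74.1 TPM in glands 133, 392, 417_3 and 517_3. Ntrk2 had the opposite order at 27.5, 38.1, 2.18 and 1.69 TPM. Glands rich in adipocyte markers were thus low in Epha2 and high in Ntrk2, and among tumors the values were 20.6 to 131.6 TPM for Epha2 and 0.49 to 4.11 TPM for Ntrk2 in Trim24COE mice.

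To show the start regions of receptors that were lower and higher, the 150 bases upstream of the RefSeq start are given for 3 of each, 5′ to 3′, from RefSeq on GRCm38.p6. The RefSeq starts of Fgfr2, Kit and Ltk lie within the GENCODE limits given for these genes, which extend farther upstream. The stretches of Fgfr2 and Ltk lie wholly inside these limits, and that of Kit lies inside them in part. Capitals mark a match to the GC box GGGCGG or the E-box CAGGTG on either strand. Fgfr2, Kit and Ltk were lower and Pdgfra, Axl and Ephb2 were higher in metaplastic carcinosarcomas. The regions are chr7:130266809-130266958 (minus strand) for Fgfr2, chr5:75574837-75574986 (plus strand) for Kit, chr2:119758526-119758675 (minus strand) for Ltk, chr5:75152101-75152250 (plus strand) for Pdgfra, chr7:25788734-25788883 (minus strand) for Axl and chr4:136836013-136836162 (minus strand) for Ephb2.
Fgfr2: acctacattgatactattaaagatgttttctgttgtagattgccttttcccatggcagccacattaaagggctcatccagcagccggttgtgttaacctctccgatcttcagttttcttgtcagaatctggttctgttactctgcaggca
Kit: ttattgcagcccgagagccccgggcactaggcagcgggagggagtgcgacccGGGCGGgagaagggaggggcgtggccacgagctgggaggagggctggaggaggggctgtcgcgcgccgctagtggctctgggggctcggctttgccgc
Ltk: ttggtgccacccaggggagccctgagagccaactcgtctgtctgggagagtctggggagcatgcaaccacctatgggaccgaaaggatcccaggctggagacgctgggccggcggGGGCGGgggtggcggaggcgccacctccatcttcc
Pdgfra: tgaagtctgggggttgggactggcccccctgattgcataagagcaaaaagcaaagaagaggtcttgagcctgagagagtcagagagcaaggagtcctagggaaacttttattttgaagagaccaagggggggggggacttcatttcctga
Axl: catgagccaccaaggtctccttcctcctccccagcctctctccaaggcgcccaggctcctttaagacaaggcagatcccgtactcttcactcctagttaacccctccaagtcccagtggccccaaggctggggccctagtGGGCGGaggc
Ephb2: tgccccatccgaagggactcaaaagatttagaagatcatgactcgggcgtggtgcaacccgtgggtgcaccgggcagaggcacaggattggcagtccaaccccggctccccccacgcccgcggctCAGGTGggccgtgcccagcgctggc

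In these stretches Kit, Ltk and Axl each hold a GC box, Ephb2 holds an E-box, and Fgfr2 and Pdgfra hold none of the motifs searched. The search covered both strands of 300 bases around the start, 250 before and 50 after, for 34 of the 41 members found in the RefSeq table, using the entry farthest upstream. GGGCGG was in 70.6% of the members (24) and 35.7% of all 32851 promoters. CAGGTG, the E-box bound by EMT repressors such as SNAIL and ZEB factors, was in 8.82% of the members (Epha1, Ephb2 and Lmtk2) and 20.2% of all promoters. TGANTCA, the AP-1 site, was in 2.94% of the members (Ror2) and 7.81% of all promoters, and GGAATG, the TEAD site, was in 26.5% (9) and 14.7%. A match describes the letters in the window and not a bound site.

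The carcinomas were compared with the same 4 control glands, so this comparison and the first share their controls. Of 34 members tested, 0 were higher and 1, Fgfr2, was lower (limma), where 3.50% of the 15479 genes tested were called, 1.58% higher and 1.92% lower. At an unadjusted p under 0.05, 3 members were higher and 6 lower, against 10.2% and 11.3% of all genes. The median log2 fold change was -0.17 over the members tested and 0.02 over all genes. Fgfr2 was at 2.40, 1.72 and 1.56 TPM in carcinomas 89, 273_5 and 3956, all below the lowest gland at 19.1 TPM, with a log2 fold change of -3.84 (SE 0.45, limma, adjusted p = 0.0101). That call held under all 17 alternatives, with an adjusted p of at most 0.0397. Leaving out mouse 89 or 392 added Ntrk3 to the calls (adjusted p = 0.0463 and 0.0470).

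Below the threshold, Ntrk3 was at 4.67, 0.72 and 0.26 TPM in carcinomas, under the lowest gland at 5.84 TPM (log2 fold change -2.79, limma, adjusted p = 0.0591). Aatk was at 1.70, 2.06 and 1.69 TPM, again under each gland (log2 fold change -1.49, limma, adjusted p = 0.0633). Ltk was at 1.23, 0.67 and 0.16 TPM, under the lowest gland at 1.67 TPM (log2 fold change -1.36, limma, adjusted p = 0.123). Kit was at 40.4, 20.8 and 4.26 TPM, so that carcinoma 89 was close to gland 133 at 43.0 TPM (log2 fold change -2.26, limma, adjusted p = 0.112). Styk1, a kinase-like membrane protein singled out after its values were seen, was at 2.31, 1.71 and 8.4 TPM in carcinomas and at most 0.60 TPM in glands (log2 fold change 1.63, limma, adjusted p = 0.0854). In metaplastic carcinosarcomas Styk1, too low to test there, was at 1.36, 0.81 and 2.11 TPM, also above each gland. Ephb4, an ephrin-B2 receptor best known in veins, was at 41.8, 39.9 and 47.9 TPM in carcinomas and 18.1 to 33.1 TPM in glands (log2 fold change 0.82, limma, adjusted p = 0.140). In Styk1 and Ephb4 each carcinoma lay above each gland, and in 7 of the 34 members tested each carcinoma lay below. Among all genes tested the shares were 10.7% above and 10.7% below.

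The carcinomas varied among themselves in several receptors that were called in metaplastic carcinosarcomas, Axl, Ephb2, Pdgfra, Pdgfrb, Epha7 and Fgfr3 among them, and less in Insr. Axl was at 70.8, 31.9 and 336 TPM (log2 fold change 1.19, limma, adjusted p = 0.4499), Ephb2 at 6.29, 0.26 and 23.3 TPM (0.50, adjusted p = 0.804) and Pdgfra at 21.4, 1.98 and 20.3 TPM (-0.35, adjusted p = 0.825). Pdgfrb was at 27.9, 10.4 and 48.8 TPM (1.23, limma, adjusted p = 0.218), Insr at 8.50, 6.99 and 7.46 TPM (-0.56, adjusted p = 0.292) and Epha7 at 2.90, 11.2 and 0.02 TPM. Tumor 273_5 was thus lowest in Axl, Ephb2, Pdgfra and Pdgfrb and highest in Epha7, and tumor 3956 was the reverse in Axl, Ephb2, Pdgfrb and Epha7. The repeat library of carcinoma 3956 gave 309 TPM for Axl, 23.5 TPM for Ephb2 and 0.02 TPM for Epha7. Fgfr3 was at 7.95, 1.27 and 0.18 TPM, and Flt3, at 0.87, 0.32 and 0.26 TPM, was too low to test.

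Whether the tumor classes differ was tested directly between metaplastic carcinosarcomas and carcinomas, with 3 tumors each. Of 32 members tested, 0 were higher and 0 were lower (limma), where 0.698% of the 14193 genes tested were called, 0.113% higher and 0.585% lower, and 8 members had an unadjusted p under 0.05, 2 higher and 6 lower in metaplastic carcinosarcomas, against 5.11% and 9.87% of all genes. An exact permutation test cannot go below p = 0.10 in this design, and median-ratio scaling moved the median of all genes by 0.16. The closest member to the threshold was Epha1, an ephrin-A receptor of epithelial cells, at 0.92, 0.62 and 2.04 TPM in metaplastic carcinosarcomas and 9.88, 5.91 and 13.04 TPM in carcinomas. The classes did not overlap in Epha1 (log2 fold change -2.27, SE 0.39, limma, adjusted p = 0.0698). Each metaplastic carcinosarcoma lay below each carcinoma in 8 of the 32 members tested and above in 3. Among all genes tested the shares were 14.4% below and 7.33% above. Flt3 had a log2 fold change of 2.04 between the classes (limma, adjusted p = 0.123, and 0.0488 with quantile normalization or 0.0484 with all batch 1 groups in a single fit). Ddr2 was at 9.01 to 26.4 TPM against 1.41 to 4.76 TPM, which is 2.23 on the log2 scale (limma, adjusted p = 0.146). For Fgfr2 the difference between the classes was 0.01 on the log2 scale with a 95% interval from -0.97 to 0.98, and for Pdgfra it was 1.76 with an interval from -0.12 to 3.63 (adjusted p = 0.356). Ltk, Epha7 and Ntrk3, called in metaplastic carcinosarcomas versus glands, were too low to test between the classes. Ltk was at 0.05 to 0.08 TPM in metaplastic carcinosarcomas and 0.16 to 1.23 TPM in carcinomas, without overlap. Epha7 was at 0.10 to 0.36 and 0.02 to 11.2 TPM, and the study lists it among genes higher in carcinomas than in carcinosarcomas. The other receptors called in metaplastic carcinosarcomas and not in carcinomas were not shown to differ between the classes.

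When all 6 Trim24COE tumors were compared with the 4 glands, 1 member was higher and 6 lower of 35 tested (limma), where 17.1% of the 15196 genes tested were called, 7.96% higher and 9.13% lower. The tumors are those of the comparisons already given, so this is not separate evidence. Fgfr2 had a log2 fold change of -3.84 (SE 0.38, limma, adjusted p = 0.000275), Kit -2.94 (adjusted p = 0.0103), Ntrk3 -2.96 (adjusted p = 0.00436), Aatk -1.83 (adjusted p = 0.00356), Ltk -1.66 (adjusted p = 0.00860) and Fgfr3 -1.85 (adjusted p = 0.0489). Pdgfrb was the higher one at 1.61 (limma, adjusted p = 0.0422). Each of Fgfr2, Kit, Ntrk3, Aatk, Ltk and Insr was lower in 6 of 6 tumors than in any gland, as were 7.2% of all genes tested, which gives p = 0.00952 in an exact two-sided permutation test, the smallest p that 210 arrangements allow, or 0.0653 adjusted over the 15196 genes. The exact p was 0.0190 for Pdgfrb and 0.0286 for Fgfr3. Styk1 was the 1 member tested that was higher in 6 of 6 tumors than in any gland, as were 7.39% of all genes tested. Its log2 fold change was 1.19 (limma, adjusted p = 0.0613). Fgfr3 and Pdgfrb were each lost under most alternatives: Fgfr3 without mouse 64, 273_5, 392, 417_3, 517_3, 567, 897 or 3956 (adjusted p up to 0.130), and Pdgfrb without mouse 64, 89, 133, 392, 417_3, 517_3, 567 or 3956 (adjusted p up to 0.110). Without glands 417_3 and 517_3 the adjusted p was 0.0736 for Kit and 0.0510 for Ltk, with the adipocyte covariate it was 0.0758 for Kit, and without mouse 273_5 the higher members numbered 4 in place of 1. Without glands 133 and 392, 0 members were higher and 10 lower, where the share of all genes went from 7.96% to 4.61% higher and from 9.13% to 11.6% lower.

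The non-TRIM24 tumors were compared with the control glands in a fit of all 15 libraries with sequencing batch as a term and the libraries of a mouse linked. Because all of these tumors are in batch 2, the batch term rested on gland 133 and carcinoma 3956. Of 36 members tested, 0 were higher and 2 lower (limma), where 0.709% of the 16775 genes tested were called, 0.203% higher and 0.507% lower, and at an unadjusted p under 0.05 there were 0 higher and 9 lower, against 4.51% and 14.8% of all genes. In 13 of the 36 members tested each non-TRIM24 tumor lay below each gland, against 23.9% of all genes tested. This count sets batch 2 tumors against batch 1 glands with no batch term. Epha3 is in it although its log2 fold change with the batch term was 0.20. Fgfr2 was at 3.21, 4.65 and 5.09 TPM in the non-TRIM24 tumors, below each gland, with a log2 fold change of -2.69 (SE 0.50, limma, adjusted p = 0.0275). Ntrk3 was at 0.06, 0.70 and 0.89 TPM, also below each gland, with a log2 fold change of -3.33 (SE 0.62, limma, adjusted p = 0.0281). Both calls were lost without mouse 219, 417_3, 517_3 or FVB002 (adjusted p up to 0.117), and that of Ntrk3 also without FVB001 (adjusted p = 0.0507). In tumor FVB001 the summed adipocyte markers were at 55140 TPM and the luminal ones at 542.4 TPM, unlike the 169.9 and 5257 TPM of tumor 219. Median-ratio scaling moved the median of all genes by 0.27 and split the called genes into 82 higher and 85 lower in place of 34 and 85, and quantile normalization (a shift of 0.23) gave 45 and 68. The members called were 0 higher and 2 lower under both.

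Other receptors in the non-TRIM24 tumors did not pass. Kit was at 22.9, 5.95 and 26.5 TPM (-2.05 on the log2 scale, limma, adjusted p = 0.154) and Ltk at 0.90, 0.02 and 1.12 TPM (-1.51, adjusted p = 0.114), and each value was below each gland. Ryk, a WNT receptor, was at 19.4, 28.3 and 24.3 TPM, below the 41.04 to 67.3 TPM of the glands (-0.96, limma, adjusted p = 0.104). Between carcinomas and non-TRIM24 tumors, 0 of 36 members were called (limma, 0.0298% of all genes), with 4 higher and 2 lower in carcinomas at an unadjusted p under 0.05, against 14.1% and 3.54% of all genes. Ryk had 53.7 to 67.1 TPM in carcinomas, above each non-TRIM24 tumor (log2 difference 1.12, limma, adjusted p = 0.154). In 8 of the 36 members tested each carcinoma lay above each non-TRIM24 tumor, against 30.1% of all genes tested, again across batches with no batch term. The difference in Fgfr2 was -1.23 with a 95% interval from -2.37 to -0.08 (limma, adjusted p = 0.262). Median-ratio scaling moved the median of all genes by -0.26 in this comparison and quantile normalization by -0.18.

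ALK and LTK share their ligands, the ALKAL proteins, and Alk is described since the study considered it. Alk was at 0.20 TPM or less in each library and was too low to test anywhere. By mouse it was at 0.20, 0.04, 0.18 and 0.07 TPM in glands, 0.08, 0.01 and 0.04 TPM in metaplastic carcinosarcomas, 0.03, 0.12 and 0.01 TPM in carcinomas and 0.02, 0.00 and 0.01 TPM in non-TRIM24 tumors. The non-TRIM24 tumors lay below each gland at these low values, and the other tumor groups overlapped with the glands. Of the ligands, Alkal1 did not pass 0.11 TPM. Alkal2, singled out after its values were seen, was at 292 TPM in carcinoma 273_5, 11.7 TPM in carcinoma 89 and 0.07 TPM in carcinoma 3956. It was at 20.9, 1.29 and 10.8 TPM in non-TRIM24 tumors, at most 1.29 TPM in glands and at most 0.11 TPM in metaplastic carcinosarcomas.

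The ligands of these receptors were followed with a list of 44 genes. In metaplastic carcinosarcomas versus glands 35 were tested, of which 7 were higher and 9 lower (limma), against 9.83% and 13.1% of all genes tested. The median log2 fold change of the ligands was -0.01 against -0.12 for all genes. For the FGF receptors, Fgf1, a ligand of all of them, was lower (log2 fold change -3.78, limma, adjusted p = 0.00479), at 7.02, 15.3, 41.2 and 31.7 TPM in glands and 1.35, 0.19 and 0.20 TPM in metaplastic carcinosarcomas. For Kit, its ligand Kitl was lower as well (-2.19, limma, adjusted p = 0.0285), from 29.2 to 124 TPM in glands to 6.75 to 19.7 TPM. The Flt3 ligand Flt3l went opposite to its receptor (-1.62, limma, adjusted p = 0.0290), from 9.13 to 27.9 TPM in glands to 3.45 to 5.0 TPM.

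Gas6, the ligand of Axl and Tyro3, was also opposite to Axl: it was at 144, 251, 401 and 373 TPM in glands and 28.7, 45.9 and 13.8 TPM in metaplastic carcinosarcomas (log2 fold change -3.31, limma, adjusted p = 0.00364). The PDGF ligand Pdgfa, which acts on PDGFRA, was higher with its receptor, at 418, 213 and 49.2 TPM against 21.5 to 36.9 TPM in glands (2.41, limma, adjusted p = 0.0309), while Pdgfd, a ligand of PDGFRB, was lower (-1.08). The neurotrophins Ntf5 and Ntf3 were lower (-2.91 and -1.43), and Ntf3 is the ligand of Ntrk3, at 1.21 to 4.44 TPM in glands and 0.06 to 0.44 TPM. The ephrins Efna4 and Efnb2 were higher (1.22 and 1.44). Of the ligands that signal through RET, Gdnf and Artn were higher (2.51 and 2.94, limma, adjusted p = 0.00290 and 0.00172) and Nrtn was lower (-3.54), whereas Ret itself was at 3.67, 3.09 and 0.65 TPM in metaplastic carcinosarcomas and 0.85 to 3.71 TPM in glands. The collagen genes Col1a1 and Col1a2, whose products bind DDR1 and DDR2, had log2 fold changes of 3.79 and 4.46, and the WNT ligand Wnt5b, of the group that acts through ROR and RYK, had -3.94 (limma, adjusted p = 0.00488).

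**Figure D4:**
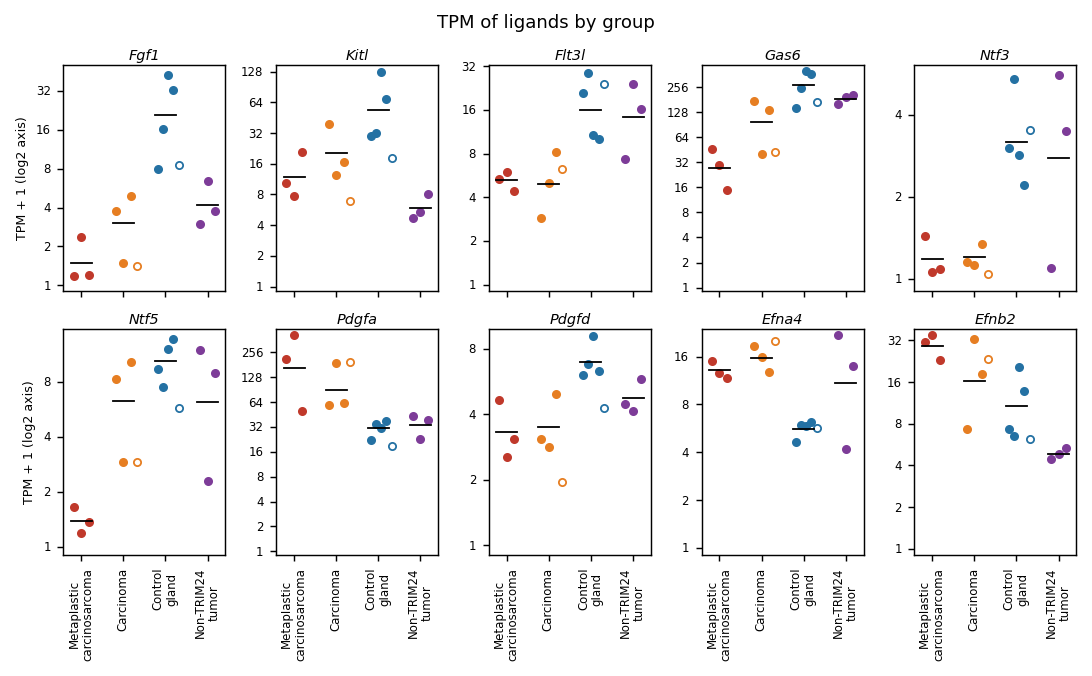
Level of 10 ligands of the described receptors (1 panel each) as TPM + 1 on a log2 axis, by group, with filled points for first libraries, open points for repeat libraries and bars for group means on the log scale. In first libraries, Fgf1, Kitl, Flt3l, Gas6, Ntf3 and Ntf5 lie lower in all metaplastic carcinosarcomas than in all glands (the repeat library of gland 133 is at 17.3 TPM for Kitl, below tumor 897 at 19.7 TPM), and Pdgfa, Efna4 and Efnb2 lie higher.

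Of the signaling genes downstream, few passed. In metaplastic carcinosarcomas versus glands, 0 of 4 co-receptors tested (1 at an unadjusted p under 0.05), 0 of 13 adaptors (3 unadjusted) and 1 of 13 feedback genes were called by limma. Among all genes tested 23.0% were called and 37.6% had an unadjusted p under 0.05. The called feedback gene was Etv4, an ETS factor induced by FGF and ERK signaling, at 49.2, 55.0 and 34.3 TPM in metaplastic carcinosarcomas and 2.57, 4.48, 12.3 and 10.2 TPM in glands (log2 fold change 2.66, limma, adjusted p = 0.00815). In carcinomas, Etv4 was at 67.9, 42.4 and 88.9 TPM (3.14, limma, adjusted p = 0.0239), and Efna4 was the 1 ligand called of 34 tested (1.47, adjusted p = 0.0364). Here 0 of 13 adaptors (2 unadjusted) and 0 of 5 co-receptors (0 unadjusted) passed. In this comparison 3.50% of all genes were called and 21.5% had an unadjusted p under 0.05. Over all Trim24COE tumors, 5 ligands were higher and 7 lower of 35, against 7.96% and 9.13% of all genes tested. Etv4 was higher (2.90), and of the adaptors Gab1, which carries FGF and MET signals to PI3K, was lower (-1.73, limma, adjusted p = 0.0217). Between the tumor classes, 0 of 34 ligands (5 unadjusted) were called, and in non-TRIM24 tumors versus glands 0 of 39 (5 unadjusted). Etv4 rose in both classes while Fgfr2 fell, and the other feedback genes, among them the Sprouty and DUSP genes, did not pass in either class.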

How the data were processed

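RNA-seq libraries of mammary tumors and glands from 13 mice were analyzed as the TPM values per gene that the authors deposited, per the file headers in 2 tables, 1 for each sequencing batch. Per the study's methods, reads were trimmed, aligned to GRCm38 with STAR and quantified with RSEM on GENCODE genes, whereas the submitters' processing notes name FastQC, TopHat, Cufflinks, RSEM, DESeq and edgeR and the build mm10. The sources also differ on the RNA and library kits, so whether strand was used in counting is not known, and 10 of the 41 receptors share exon bases with another annotated gene, in most cases on the other strand. TPM keeps no depth, so counting error could not be given and limits on low values are unknown.

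Values were transformed to log2(TPM + 1), and genes were tested if the number of libraries at 1 TPM or more reached the size of the smaller group, with limma (version 3.58.1, R 4.3.3, moderated with a variance trend, two-sided, Benjamini-Hochberg over all genes tested, threshold 0.05). Each mouse entered the batch 1 comparisons with its batch 1 library, and only groups being compared were fitted. The non-TRIM24 tumors were compared in a fit of the 15 libraries together, with batch as a term and the libraries of a mouse linked (correlation 0.951). Exact permutation tests went through every arrangement of the mice, and scipy 1.17.1 adjusted their p-values. The groups came from the sample labels. P-values measure the spread between mice, and the 2 libraries of a mouse were not counted as separate mice, except in the alternative without the link. All comparisons with control glands share the same 4 glands.

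The members and the lists of ligands (44), co-receptors (7), adaptors (13), feedback genes (13) and cell type markers (75 in 12 lists) were chosen with earlier results of these data known. Receptors were described by mouse when they passed the threshold in a batch 1 comparison or in non-TRIM24 tumors versus glands, with Alk and Ltk always included, and ligands by name when they bind a described receptor and passed, plus up to 3 per direction and list. The 41 receptors were placed on GRCm38 with GENCODE M21, and promoter sequences came from RefSeq. The fitting steps were tested on simulated data. Alternatives were a pseudocount of 0.1, no filter, a filter of 5 TPM, median-ratio scaling, quantile normalization, a fit of all batch 1 groups, an adipocyte covariate, averaged or unlinked repeat libraries and leaving out each mouse. Leaving out pairs of glands was added after the data were seen.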

Additional observations from a re-analysis of the deposited data

Results flagged for a closer look

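Among the 28 groups of 4 or more mice checked for a mouse standing apart from its group, 1 receptor met the criterion, where chance alone gives about 1 in 20 groups. Pdgfra in carcinoma 273_5 was the lowest of the 6 Trim24COE tumors at 1.98 TPM, with the next at 20.3 TPM. The gap on the log2 scale was 0.710 of the range of the tumors, above Dixon's 95% critical value of 0.625. In the same tumor the summed fibroblast markers were at 71.1 TPM, the lowest of the Trim24COE tumors, against 207.9 to 1057 TPM in the others, and their part in the value was not tested.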

How the results depend on the processing

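Of 470 values of single receptors under alternatives, 350 kept their direction and side of the threshold, 106 were no longer past it, 14 came past it and 0 reversed. In metaplastic carcinosarcomas versus glands, the 5 higher members became 1 without a filter, 2 with all batch 1 groups in a single fit, and 3 with the adipocyte covariate or without glands 133 and 392, and 1 to 5 when 1 mouse was left out. The share of all genes higher was 1.86% without a filter and 8.79% in the single fit, against 9.83%. It was 10.7% with the covariate and 12.2% without glands 133 and 392. The 8 lower members became 4 without a filter, 17 with the covariate and 18 without glands 133 and 392 (2.29%, 22.0% and 25.4% of all genes were lower then, against 13.1%), and 4 to 10 when 1 mouse was left out. In carcinomas versus glands, the 0 higher members became 1 in the single fit and 3 without glands 417_3 and 517_3 (3.26% and 3.80% of all genes were higher then, against 1.58%). The 1 lower member became 2 with median-ratio scaling, quantile normalization or the covariate (2.49%, 2.14% and 3.74% of all genes were lower then, against 1.92%). The count became 3 in the single fit (4.03%) or without glands 417_3 and 517_3 (4.01%), 4 without glands 133 and 392 (5.62%), and 1 to 2 when 1 mouse was left out. Between the classes, the 0 higher members became 1 with quantile normalization or the single fit (0.169% and 0.206% of all genes were higher then, against 0.113%). Over all Trim24COE tumors, the 1 higher member became 2 with a pseudocount of 0.1, either scaling, the single fit or without glands 417_3 and 517_3, 0 without a filter, with the covariate or without glands 133 and 392, and 0 to 4 when 1 mouse was left out. The share of all genes higher was 8.14% with the pseudocount, 10.4% with median-ratio scaling and 9.94% with quantile normalization, against 7.96%. It was 9.47% in the single fit and 9.29% without glands 417_3 and 517_3. Without a filter, with the covariate and without glands 133 and 392 it was 1.76%, 3.09% and 4.61%. The 6 lower members became 10 without glands 133 and 392, when 11.6% of all genes were lower against 9.13%. In non-TRIM24 tumors versus glands, the 2 lower members became 0 with a pseudocount of 0.1, without a filter or without the link between libraries, and 0 to 2 when 1 mouse was left out. In the first 3 settings 0.370%, 0.0875% and 0.0596% of all genes were lower, against 0.507%. The cause of these shifts was not tested, except that fewer mice or more low genes enter where the setting says so. No paired analysis was possible because the groups share no replicate numbers. Groups of 3 and 4 mice and TPM without depth limit what low receptors such as Alk can show.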

Other observations

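Some receptors and ligands were high in single tumors, values picked after they were seen. Ret, the receptor of the GDNF family, was at 23.4 TPM in non-TRIM24 tumor FVB001 and 10.5 TPM in carcinoma 3956 (10.2 TPM in its repeat library), against at most 3.71 TPM in control glands. Mst1r, the receptor of macrophage-stimulating protein, was at 13.2 TPM in FVB001 and at most 6.90 TPM in Trim24COE tumors. Igf2, a growth factor that acts through IGF1R and INSR, was at 247 TPM in metaplastic carcinosarcoma 567 and at 0.36 and 0.49 TPM in metaplastic carcinosarcomas 64 and 897. Epha5, an ephrin-A receptor of the nervous system, was at 2.05 TPM in carcinoma 273_5 and below 1 TPM in each of the other libraries. Epha3 was at 2.16 TPM in tumor 567, 2.44 TPM in carcinoma 3956 and 3.04 TPM in carcinoma 89, and the repeat library of carcinoma 3956 gave 1.06 TPM.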
